A study of Homo sapiens with 9 samples.

Results

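The genes that fold proteins in the endoplasmic reticulum (ER), clear those that fail to fold and sense the load of unfolded protein were followed in human hepatoma Huh-7 cells and in a clone lacking each of 2 lipoprotein assembly genes. They were taken by name, as 41 symbols among the 58735 genes in the files, and every symbol matched 1 gene. The 41 genes comprised 10 stress sensors, transcription factors and their processing enzymes, 13 chaperones and co-chaperones, 8 disulfide isomerases and relatives, and 10 genes of ER-associated degradation.

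RNA sequencing covered 9 libraries in 3 groups of 3 biological replicates. The control group was unmodified Huh-7 cells, Ako-3 was a Huh-7 clone in which APOB had been disrupted with guide RNA and Cas9 protein, and Mko-3 was a Huh-7 clone deficient in MTTP. APOB encodes the structural protein of very low density lipoproteins, and MTTP encodes the microsomal transfer protein that loads it with lipid in the ER lumen. All cells were of human hepatoma type, were grown in DMEM with 10% fetal bovine serum and were kept in medium without serum overnight before RNA was taken. Each knockout was 1 clone set against the uncloned line, so knockout and clone cannot be told apart, and the same 3 control libraries served both knockouts.

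A trio of ER membrane proteins, IRE1α, ATF6 and PERK, starts the unfolded protein response. IRE1α, encoded by ERN1, splices XBP1 mRNA into the form that encodes an active transcription factor, ATF6 is carried to the Golgi and cut free by the proteases of MBTPS1 and MBTPS2, and PERK, encoded by EIF2AK3, phosphorylates eIF2α and so raises translation of ATF4. ATF6 and spliced XBP1 raise chaperone and degradation genes, while the PERK branch acts through ATF4 and DDIT3. Hepatocytes secrete large amounts of plasma protein and carry an ER rich in these chaperones. Counts were per gene, so spliced and unspliced XBP1 were not separated.

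The stress elements that ATF6 and XBP1 are known to bind are shown first. The genes were taken by name and not by these elements. As ATF6 and XBP1 are known to raise genes of these kinds, the letters and the choice of genes are not independent. The 250 bases before each RefSeq start (GRCh38.p14) were searched on both strands for 3 elements. The ER stress element (ERSE) was taken as CCAAT and CCACG with any 9 bases between them, its shorter form ERSE-II as ATTGG and CCACG with any 1 base between them, and the unfolded protein response element (UPRE) as TGACGTGG. Of the 41 genes, 38 had such a window and DERL1, DERL3 and PDIA3 were not matched. The letters of ERSE or ERSE-II stood before 10 of these 38 genes (26.3%) and before 43 of all 27305 genes with a window (0.157%). ERSE alone was found in 7 of the 38 (18.4%) against 0.0916% of all genes, and ERSE-II in 3 (7.89%) against 0.0659%. UPRE was found in 3 (7.89%, HYOU1, DNAJC10 and TXNDC5) against 0.78%. In HYOU1 it shared 5 bases with the ERSE-II match farther from the start, which is not printed below. For each of the 10 genes the match nearest the start is printed 5′ to 3′ along the gene's strand, with the letters of the element in capitals. HSP90B1 and HYOU1 each held another match farther upstream.
HSPA5 (chr9:125241386-125241414, minus strand): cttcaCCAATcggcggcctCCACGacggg
XBP1 (chr22:28800598-28800626, minus strand): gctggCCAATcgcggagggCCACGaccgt
CALR (chr19:12938379-12938407, plus strand): ccacgCGTGGtcgaccatcATTGGtcggt
HSP90B1 (chr12:103930316-103930344, plus strand): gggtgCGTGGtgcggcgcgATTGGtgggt
CANX (chr5:179698773-179698801, plus strand): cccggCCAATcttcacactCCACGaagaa
CRELD2 (chr22:49918549-49918577, plus strand): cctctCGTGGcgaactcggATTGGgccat
PDIA6 (chr2:10812848-10812876, minus strand): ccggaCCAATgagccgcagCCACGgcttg
HYOU1 (chr11:119057269-119057289, minus strand): tgggaCGTGGtCCAATgagta
SDF2L1 (chr22:21642109-21642129, plus strand): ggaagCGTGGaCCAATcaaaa
HERPUD1 (chr16:56932020-56932040, plus strand): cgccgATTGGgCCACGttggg

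HSPA5, which encodes the ER Hsp70 BiP, is printed at greater length as the chaperone most used to read this response. The stretch runs from 200 to 41 bases before its start, chr9:125241384-125241543 on the minus strand of GRCh38.p14, again with the ERSE letters in capitals.
HSPA5: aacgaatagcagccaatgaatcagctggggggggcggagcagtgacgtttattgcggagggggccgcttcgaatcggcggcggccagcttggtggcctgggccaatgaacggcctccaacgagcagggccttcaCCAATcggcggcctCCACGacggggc
A match is a run of letters and not a measured binding site, and inexact copies were not searched.

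Total counts per library ranged from 14638727 to 20179760. Levels are given as FPKM, fragments scaled to gene length and to a size for each library that is not its total count. Differences are given as log2 fold changes from edgeR with their standard errors (SE). APOB, the targeted gene of Ako-3, was at 179, 235 and 258 FPKM in control cells, 94.6, 83.6 and 84.5 FPKM in Ako-3 cells and 208, 227 and 218 FPKM in Mko-3 cells. MTTP was at 116, 111 and 121 FPKM in control cells, 109.8, 105 and 99.3 FPKM in Ako-3 cells and 16.0, 16.6 and 15.3 FPKM in Mko-3 cells. Each targeted gene was thus lowest in its own clone without reaching 0. All 8 hepatocyte markers averaged above 1 FPKM. Their summed level was 5061 to 5224 FPKM in control, 6031 to 6313 in Ako-3 and 4981 to 5224 in Mko-3 libraries, with 7 of 8 higher and none lower in Ako-3 (median log2 fold change 0.61) and 3 higher and 2 lower in Mko-3 (median 0.04). Within the near-equal sums of Mko-3 and control, ALB was at 1803 to 1871 FPKM in Mko-3 against 2452 to 2599 in control. AFP was at 1795 to 1911 FPKM in Mko-3 against 1025 to 1077 in control. Mitochondrial genes took 5.52 to 6.17% of counts in control, 7.06 to 7.40% in Ako-3 and 5.75 to 5.82% in Mko-3 libraries. Of the other cell markers, 8 of 10 for blood, endothelial, stromal and duct cells stayed below 1 FPKM in every library. The summed level of those 10 markers was 9.93 to 11.3 FPKM in control, 13.6 to 14.9 in Ako-3 and 7.59 to 8.22 in Mko-3 libraries, nearly all of it PECAM1. The part of these marker levels and of the mitochondrial share in the results was not tested.

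In control cells most of these genes lay above the median level of expressed genes. DNAJB9, ERN1, DNAJC10, TXNDC5, EIF2AK3 and DERL2 were expressed below it. Of the 41, 40 were expressed and DERL3, a secretory cell homologue of the derlins, had no count in 8 libraries and 1 count in Mko-3 replicate 1. CALR, encoding the lectin chaperone calreticulin, was the highest at 366 ± 34.4 FPKM (SD, n = 3), followed by HSP90B1 (GRP94) at 225 ± 16.0. XBP1 at 162 ± 7.94, PDIA4 at 158 ± 16.8 and HSPA5 at 157 ± 20.5 came next, and their ranges over the 3 libraries overlapped in turn. The lowest expressed member was DERL2, at 3.38 ± 0.33, where the median of 12692 genes above 1 FPKM was 6.16.

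The chaperones made up most of the change in level. Their summed FPKM was 946, 1093 and 949.8 in the control libraries, 1474, 1510.0 and 1512 in Ako-3 and 1672, 1641 and 1631 in Mko-3. The abundant CALR, HSPA5 and HSP90B1 made up much of the rise in this sum. In control, Ako-3 and Mko-3 the means were 366, 603 and 612 FPKM for CALR and 157, 272 and 326 for HSPA5. For HSP90B1 they were 225, 276 and 299.5. The disulfide isomerases and relatives summed to 410.2 to 457 FPKM in control, 548 to 562 in Ako-3 and 604 to 612 in Mko-3 libraries. Degradation genes summed to 169 to 178, 198 to 203 and 208 to 217 FPKM in the same order. In these 3 classes no knockout library fell within the control range. OS9 made up much of the rise in the degradation sum, with means of 45.7 FPKM in control, 67.6 in Ako-3 and 72.35 in Mko-3. Of the 9 tested degradation genes, 6 did not pass in each comparison. The sensors and transcription factors summed to 320.2 to 346 FPKM in control, 342 to 348 in Ako-3 and 333 to 339 in Mko-3, with overlapping groups. As RNA was taken from whole cultures, a change in the cells present and a change in RNA per cell cannot be told apart.

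**Figure D1:**
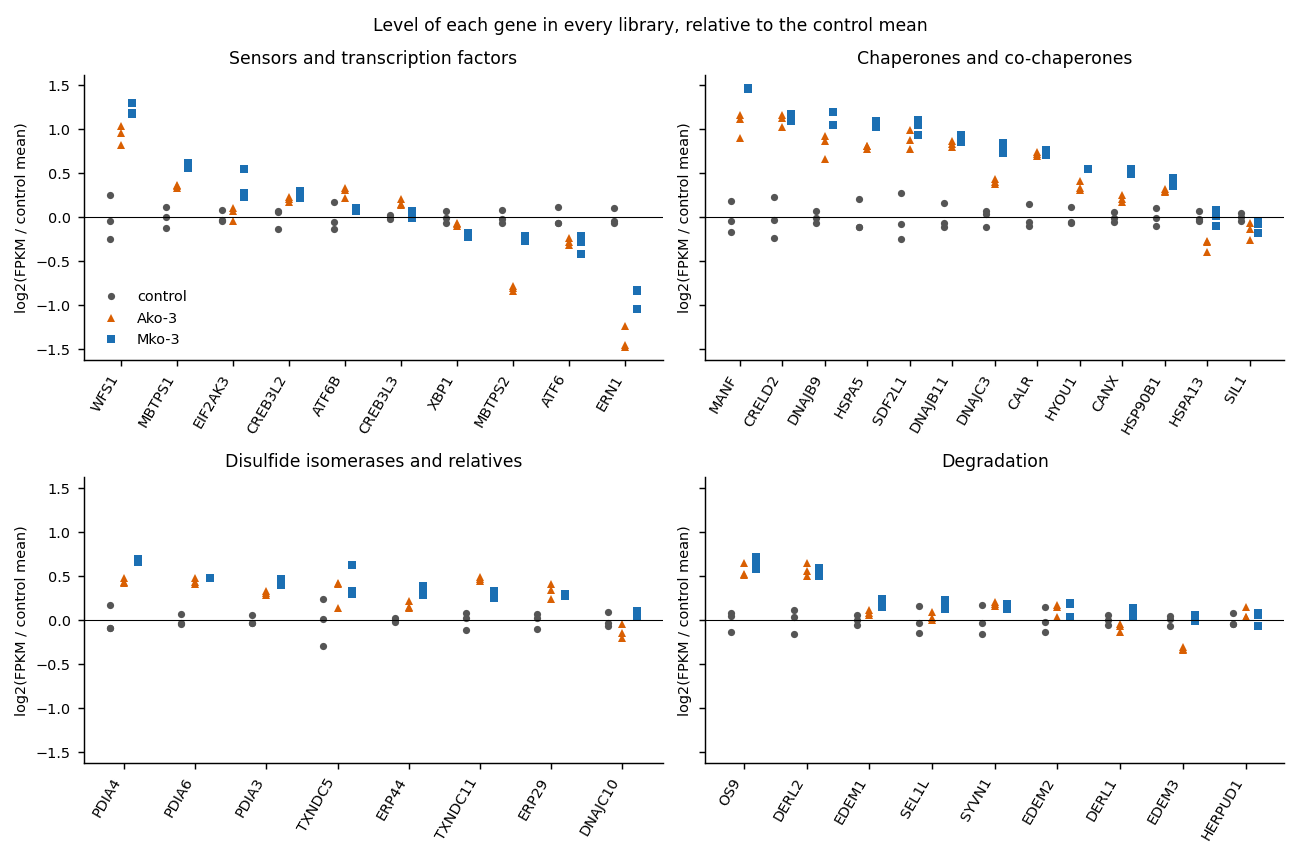
Level of the 40 expressed genes in every library, as log2 of FPKM over the control mean (vertical axis), by class and gene (horizontal axis), with circles for control, triangles for Ako-3 and squares for Mko-3 libraries. Chaperones such as MANF lie above 0 in all 6 knockout libraries, while ERN1 lies below 0 in all 6.

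In Ako-3 cells, 24 of the 40 tested genes were higher than in control cells, 5 were lower and 11 did not pass an adjusted p of 0.05. The higher mitochondrial share and hepatocyte marker level of the Ako-3 libraries stand beside these counts. Over all genes tested, 25.5% were higher and 24.4% lower by the same rule. The median log2 fold change was 0.29 over the 40 genes and -0.009 over all genes. With a change of at least 2-fold also required, 3 were called, MANF and CRELD2 higher (background 3.52%) and ERN1 lower (background 5.0%). In Mko-3 cells, 25 of 40 were higher (background 26.9%), 4 were lower (27.1%) and 11 did not pass, with a median of 0.33 against -0.011 over all genes. There, 6 were called at 2-fold, all higher, HSPA5, MANF, CRELD2, DNAJB9, SDF2L1 and WFS1 (background 3.82% higher and 7.22% lower). When libraries were scaled by their totals alone, 71.4% of the passing genes in Ako-3 were higher in place of 82.8%, and the median of all genes moved to -0.10.

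The chaperone class moved furthest. Of its 13 genes, 11 rose and 1 fell in Ako-3 (median log2 fold change 0.71), while in Mko-3 11 rose and none fell (median 0.77). The background of higher genes is 25.5% in Ako-3 and 26.9% in Mko-3. Control replicate 2 had the highest of the 3 control values for 11 of the 13, and it had the highest for 39.7% of 12517 genes above 1 FPKM. With that library left out, the count of higher chaperones was again 11 in each comparison and the medians were 0.79 and 0.82.

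HSPA5 was at 145, 180.2 and 145 FPKM in control cells, 268, 274 and 275 in Ako-3 and 333, 326 and 319 in Mko-3 cells. The 3 groups did not overlap, and control replicate 2 was the control library closest to the knockouts. The log2 fold change was 0.80 (SE 0.07, adjusted p = 3.4e-08, edgeR) in Ako-3 and 1.05 (SE 0.07, adjusted p = 7.9e-10) in Mko-3. In Mko-3, the call at 2-fold was lost without control replicate 1 (0.996) or without control replicate 3 (0.992).

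MANF encodes a secreted ER protein that binds BiP and leaves the cell under stress. It stood at 16.2, 19.0 and 14.8 FPKM in control, 31.2, 36.1 and 37.2 in Ako-3 and 46.2, 45.8 and 46.1 in Mko-3 libraries, in 3 separate ranges. Its log2 fold change of 1.46 (SE 0.08, adjusted p = 5.5e-12, edgeR) in Mko-3 was the largest rise among the 40 genes, and that in Ako-3 was 1.06 (SE 0.09, adjusted p = 9.6e-09). Without control replicate 3 the Ako-3 value was 0.99, below 2-fold.

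CRELD2, whose product is likewise a secreted stress protein of the ER, was at 7.70, 9.22 and 6.68 FPKM in control, 16.1, 17.2 and 17.6 in Ako-3 and 17.7, 16.8 and 16.9 in Mko-3. Both clones lay above every control library and overlapped each other. Its log2 fold changes were 1.11 (SE 0.09, adjusted p = 1.0e-08, edgeR) and 1.12 (SE 0.09, adjusted p = 2.9e-09). CRELD2 overlaps the oppositely oriented ALG12, which had 788 to 1037 counts per library and did not pass in either comparison, and whether counting used strand is not given in the sources used here.

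The J-domain co-chaperones DNAJB9, DNAJB11 and DNAJC3, which hand substrates to BiP, also rose, whereas DNAJC10 (ERdj5), a J-domain reductase described with the disulfide genes, did not pass in either clone. DNAJB9 (ERdj4) was at 6.38, 5.79 and 5.997 FPKM in control, 11.5, 11.1 and 9.60 in Ako-3 and 12.5, 13.9 and 12.5 in Mko-3, giving 0.82 (SE 0.10, adjusted p = 7.9e-07, edgeR) and 1.08 (SE 0.09, adjusted p = 3.8e-09). DNAJB11 (ERdj3) was at 11.4, 13.8 and 11.8 FPKM in control, 22.5, 21.9 and 21.3 in Ako-3 and 22.2, 23.3 and 23.5 in Mko-3, with log2 fold changes of 0.83 and 0.89 (both SE 0.07). DNAJC3 (P58IPK) rose by 0.40 in Ako-3 and 0.77 in Mko-3. For all 3, every knockout library exceeded every control library.

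SDF2L1 encodes a partner of DNAJB11 and was at 36.5, 46.7 and 32.5 FPKM in control, 66.2, 76.9 and 70.8 in Ako-3 and 82.7, 73.8 and 79.6 in Mko-3 libraries. Its control values spread more than those of either clone, yet none reached a knockout value. The log2 fold changes were 0.89 (SE 0.11, adjusted p = 5.3e-06, edgeR) and 1.02 (SE 0.10, adjusted p = 4.8e-07). The call at 2-fold in Mko-3 was lost without control replicate 1 (0.99), control replicate 3 (0.91) or Mko-3 replicate 1.

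The abundant lectin and heat shock chaperones and HYOU1 rose too. CALR changed by 0.71 in Ako-3 and 0.73 in Mko-3 and its lectin partner CANX by 0.21 and 0.51. HSP90B1 changed by 0.29 and 0.40 and HYOU1 (GRP170), a nucleotide exchange factor of BiP, by 0.35 and 0.53. All 4 passed in each comparison. The class was not uniform, since SIL1, the other exchange factor, did not pass (-0.16, SE 0.09, and -0.11, SE 0.09), and the Hsp70 HSPA13 fell by 0.32 in Ako-3 and stood at -0.01 (SE 0.07) in Mko-3.

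**Figure D2:**
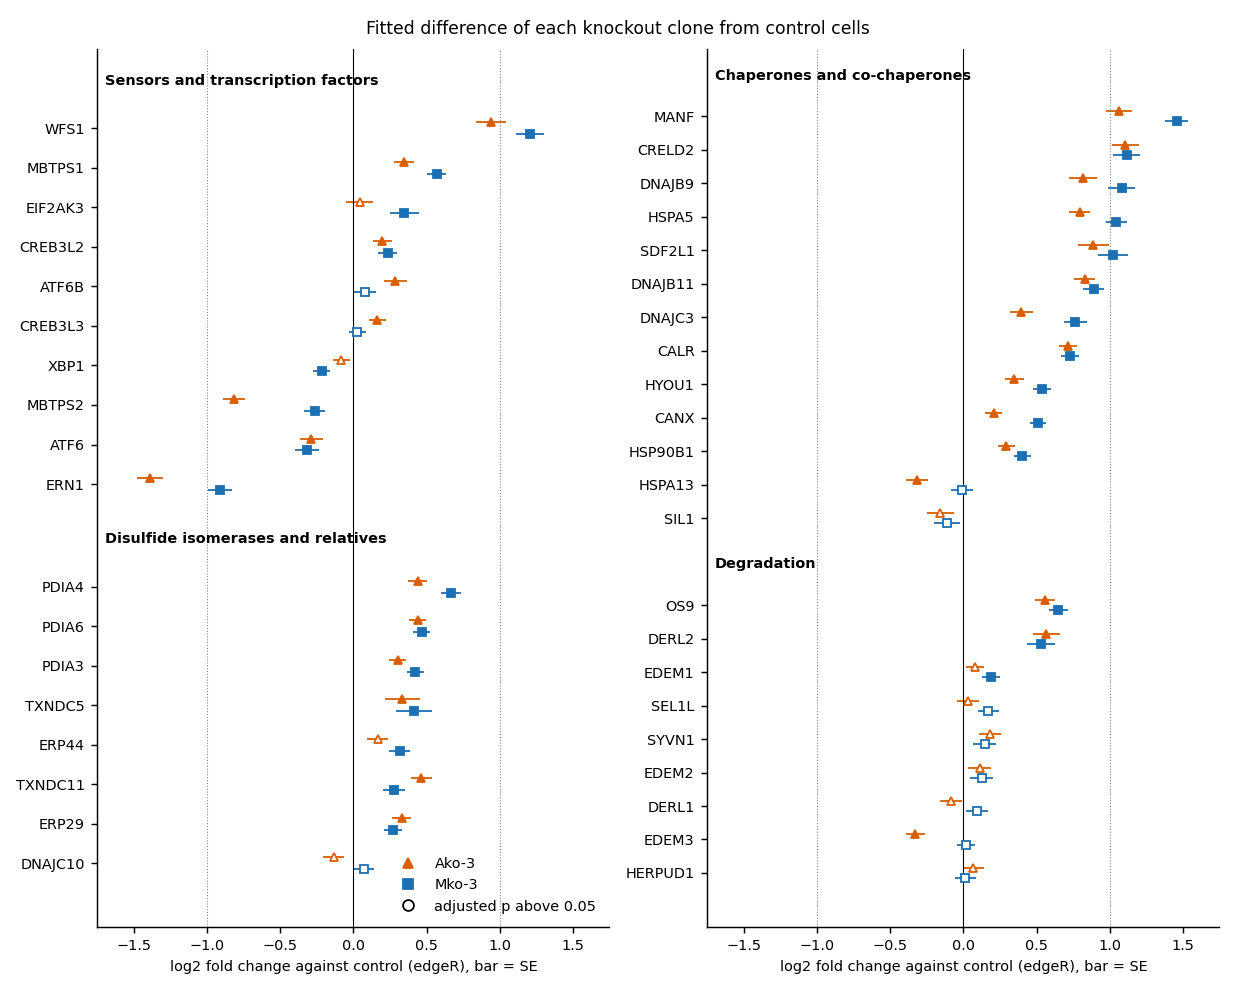
Fitted log2 fold change against control (horizontal axis, edgeR) of the 40 tested genes for Ako-3 (triangles) and Mko-3 (squares), with bars for the SE, open symbols for an adjusted p above 0.05 and dotted lines at 2-fold. MANF reaches 1.46 in Mko-3 at one end and ERN1 -1.39 in Ako-3 at the other.

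Among the sensors and factors, 5 of 10 were higher and 3 lower in Ako-3 (median 0.10). In Mko-3, 4 were higher and 4 lower (median 0.05). These counts stand against backgrounds of 25.5% higher and 24.4% lower in Ako-3 and 26.9% higher and 27.1% lower in Mko-3. With 10 genes, the 3 lower in Ako-3 lie near the background. ERN1 (chr17) carried the largest fall. Its levels were 5.37, 5.46 and 6.05 FPKM in control, 2.39, 2.02 and 2.06 in Ako-3 and 3.14, 3.16 and 2.72 in Mko-3, in 3 separate ranges with Ako-3 lowest. The log2 fold changes were -1.39 (SE 0.09, adjusted p = 9.1e-11, edgeR) and -0.91 (SE 0.08, adjusted p = 9.7e-09), so that ERN1 moved against the chaperones in each clone.

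XBP1, the mRNA on which IRE1α acts, was at 162, 170.5 and 155 FPKM in control, 152, 155 and 153 in Ako-3 and 138, 143 and 142 in Mko-3. Ako-3 overlapped the control range (-0.08, SE 0.06, adjusted p = 0.24, edgeR), whereas Mko-3 lay below it (-0.22, SE 0.06, adjusted p = 3.3e-03). These are levels of total XBP1 mRNA, and its splicing is not shown by them.

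ATF6 was at 6.71, 6.70 and 7.603 FPKM in control, 5.93, 5.75 and 5.61 in Ako-3 and 5.26, 6.03 and 5.74 in Mko-3. Every knockout library lay below every control library, with log2 fold changes of -0.29 (SE 0.08, adjusted p = 4.4e-03, edgeR) and -0.32 (SE 0.08, adjusted p = 2.2e-03). Its homologue ATF6B rose in Ako-3 (0.29, adjusted p = 5.6e-03, edgeR) and was at 0.08 (adjusted p = 0.44) in Mko-3, and the difference of Mko-3 from Ako-3 was -0.21 (adjusted p = 2.5e-03).

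The Golgi proteases that release ATF6 moved in opposite directions. MBTPS1 (site-1 protease) rose by 0.34 and 0.57. MBTPS2 (site-2 protease, on chromosome X) was at 7.56, 7.75 and 8.35 FPKM in control, 4.52, 4.39 and 4.57 in Ako-3 and 6.52, 6.77 and 6.59 in Mko-3, falling by 0.82 (SE 0.08, adjusted p = 2.2e-08, edgeR) and by 0.26 (SE 0.07, adjusted p = 3.6e-03). The 3 ranges of MBTPS2 were separate, with Ako-3 lowest.

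EIF2AK3 was at 4.19, 4.56 and 4.21 FPKM in control, 4.64, 4.54 and 4.18 in Ako-3 and 5.22, 6.32 and 5.07 in Mko-3. Ako-3 overlapped control (0.04, SE 0.09, adjusted p = 0.73, edgeR), and Mko-3 was above it (0.35, SE 0.10, adjusted p = 5.1e-03), with replicate 2 the highest. Without that library the Mko-3 value was 0.25 and did not pass (adjusted p = 0.06, edgeR). CREB3L2, an ER-anchored factor related to ATF6, rose by 0.20 and 0.24, and the liver factor CREB3L3 rose by 0.16 in Ako-3 and was at 0.03 (SE 0.06) in Mko-3.

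WFS1, an ER membrane protein of calcium handling and a known target of this response, rose most in the class. It was at 12.9, 15.9 and 11.2 FPKM in control, 25.9, 23.6 and 27.5 in Ako-3 and 30.1, 30.4 and 32.8 in Mko-3, and the groups did not overlap. Its log2 fold changes were 0.94 (SE 0.10, adjusted p = 3.0e-06, edgeR) and 1.21 (SE 0.10, adjusted p = 4.7e-08). In Ako-3 it lay just below 2-fold, and without control replicate 2 it and SDF2L1 were called too, for 5 members in place of 3. Without Ako-3 replicate 2, WFS1 was also called (1.00).

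**Figure D3:**
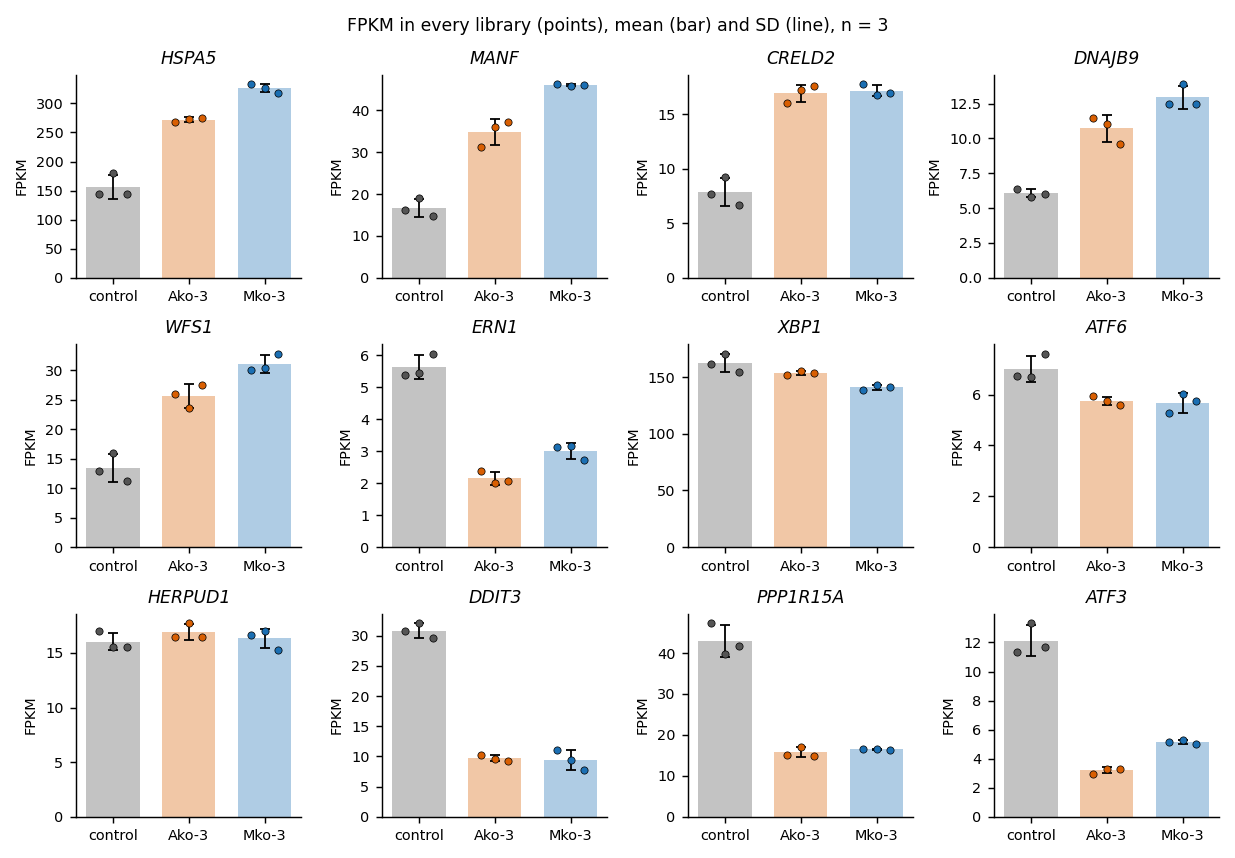
FPKM (vertical axis, from 0) of 12 genes in the 3 groups, with a point for each library, a bar for the mean and a line for the SD (n = 3). HSPA5, MANF, CRELD2, DNAJB9 and WFS1 are higher and ERN1, DDIT3, PPP1R15A and ATF3 lower in every knockout library than in every control library, and HERPUD1 overlaps across groups.

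The disulfide isomerases and relatives, which form and rearrange the disulfide bonds of secreted proteins, were mostly higher by small amounts. In Ako-3, 6 of 8 were higher and none lower (median 0.33), and in Mko-3 7 of 8 were higher and none lower (median 0.36). Over all genes tested, 25.5% were higher in Ako-3 and 26.9% in Mko-3. PDIA4 (ERp72) was at 149, 178 and 148 FPKM in control, 213, 211 and 220.1 in Ako-3 and 254, 255 and 250.1 in Mko-3, with log2 fold changes of 0.44 (SE 0.07, adjusted p = 1.7e-05, edgeR) and 0.67 (SE 0.07, adjusted p = 3.0e-08). No range touched another.

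PDIA6 (P5) was at 66.3, 71.7 and 66.7 FPKM in control, 91.0, 92.1 and 94.96 in Ako-3 and 95.1, 94.9 and 95.3 in Mko-3, with log2 fold changes of 0.44 and 0.47 (both SE 0.06). PDIA3 (ERp57), the partner of calreticulin and calnexin, was at 114, 122 and 114 FPKM in control, 144, 146 and 143 in Ako-3 and 161, 159 and 154 in Mko-3, with 0.30 and 0.42 (both SE 0.06). Both genes were above control in every knockout library. ERP29 and TXNDC11 passed with 0.33 and 0.46 in Ako-3 and 0.27 and 0.28 in Mko-3. ERP44, which retains proteins by their thiols, passed in Mko-3 (0.31) and was at 0.17 (SE 0.07, adjusted p = 0.056, edgeR) in Ako-3, and the reductase DNAJC10 passed in neither (-0.14, SE 0.07, and 0.07, SE 0.07). TXNDC5 passed with 0.33 (SE 0.12) and 0.41 (SE 0.12), from a level of 3.54 to 6.69 FPKM that is uncertain because its exons are shared with a read-through gene listed at 0 counts.

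Degradation genes split into a few that rose and a core that did not pass. Of the 9 tested, 2 were higher and 1 lower in Ako-3 (median 0.08), and 3 were higher and none lower in Mko-3 (median 0.15). These counts of higher genes stand against a background of 25.5% in Ako-3 and 26.9% in Mko-3, and with 9 genes they lie near it.

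OS9, a lectin that brings glycoproteins to the ubiquitin ligase, was at 48.3, 41.8 and 47.1 FPKM in control, 65.1, 72.0 and 65.7 in Ako-3 and 75.4, 68.6 and 73.1 in Mko-3. Both clones were above control and overlapped each other, with log2 fold changes of 0.56 (SE 0.07, adjusted p = 9.6e-07, edgeR) and 0.65 (SE 0.06, adjusted p = 4.1e-08). DERL2 (derlin-2), a part of the channel out of the ER, was at 3.67, 3.46 and 3.02 FPKM in control, 4.79, 5.29 and 4.98 in Ako-3 and 4.81, 4.86 and 5.11 in Mko-3, with 0.57 and 0.53 (both SE 0.09). Its exons overlap the oppositely oriented MIS12, which was itself higher by 0.59 and 0.40, so reads of the pair may be mixed. OS9 likewise overlaps AGAP2, which had at most 334 counts in a library and was higher by 0.83 and 0.80.

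For the ligase core no change passed. SEL1L, the scaffold, had log2 fold changes of 0.03 (SE 0.07) and 0.17 (SE 0.07), the ubiquitin ligase SYVN1 (HRD1) 0.18 and 0.15 (both SE 0.08), and HERPUD1, a stress-induced adaptor of the ligase, 0.07 and 0.01 (both SE 0.07). SEL1L in Mko-3 (adjusted p = 0.052, edgeR) and SYVN1 in Ako-3 (adjusted p = 0.054, edgeR) lay just above the threshold. HERPUD1 was at 15.6 to 17.0 FPKM in control, 16.4 to 17.7 in Ako-3 and 15.3 to 17.0 in Mko-3. DERL1 and EDEM2 also did not pass in either comparison. SYVN1 shares bases with FAU and MRPL49, and its values carry that limit.

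The EDEM proteins trim mannose from glycans of misfolded proteins. EDEM3 was at 16.5, 17.4 and 17.7 FPKM in control, 13.9, 13.6 and 13.7 in Ako-3 and 17.9, 17.6 and 17.1 in Mko-3. Ako-3 alone lay below control (-0.33, SE 0.06, adjusted p = 2.2e-04, edgeR), with Mko-3 at 0.02 (SE 0.06, adjusted p = 0.85), and Mko-3 exceeded Ako-3 by 0.34 (SE 0.05, adjusted p = 6.1e-09). EDEM1 was higher in Mko-3 by 0.19 (SE 0.06, adjusted p = 0.013) and at 0.08 (SE 0.06, adjusted p = 0.31) in Ako-3.

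Of the 10 genes with ERSE or ERSE-II letters, 8 were higher and none lower in Ako-3 (median 0.39), and 8 were higher and 1 lower in Mko-3 (median 0.52). HERPUD1 and XBP1 were the 2 that did not rise in each. Of the 28 searched members without these letters, 15 were higher and 5 lower in Ako-3 (median 0.19) and 16 were higher and 3 lower in Mko-3 (median 0.25). Among other genes of the genome, 33 held the letters and 20 of these were tested, of which 6 were higher and 6 lower in Ako-3 and 9 were higher and 4 lower in Mko-3. The share higher over all genes tested was 25.5% in Ako-3 and 26.9% in Mko-3. No test was made between these counts.

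**Figure D4:**
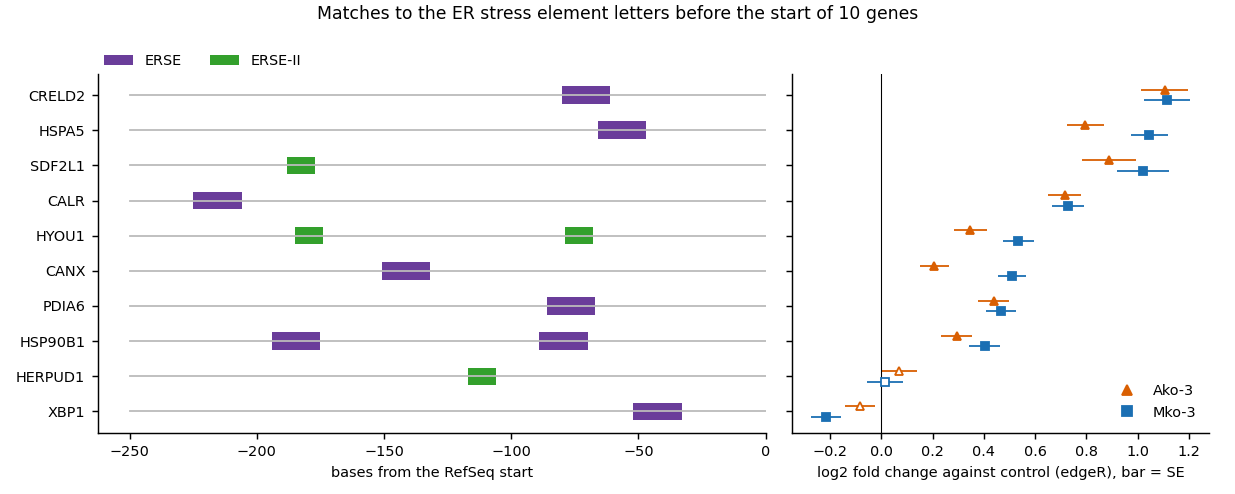
Left, place of the ERSE (purple) and ERSE-II (green) letters in the 250 bases before the RefSeq start of 10 genes, in bases from the start. Right, log2 fold change against control (edgeR) of the same genes for Ako-3 (triangles) and Mko-3 (squares) with SE bars and open symbols for an adjusted p above 0.05, running from about 1.12 for CRELD2 to -0.22 for XBP1 in Mko-3.

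The clones were also compared with each other, in a fit without the control libraries. Of 40 genes, 22 were higher in Mko-3 than in Ako-3 (background 21.1%), 4 were lower (20.6%) and 14 did not pass. None was called at 2-fold by edgeR or DESeq2 (background 2.26% higher and 3.47% lower by edgeR), while 27 had an unadjusted edgeR p under 0.05. The median was 0.12 against 0.005 over all genes, so the differences were small. By class, 9 of 13 chaperones, 4 of 8 disulfide genes and 4 of 9 degradation genes were higher in Mko-3. In the class of sensors, factors and processing enzymes 5 of 10 were, namely ERN1, EIF2AK3, MBTPS1, MBTPS2 and WFS1. SDF2L1, among the 9 higher chaperones, lay at the threshold (0.13, SE 0.06, adjusted p = 0.05, edgeR). Its pass was lost without Ako-3 replicate 1 (adjusted p = 0.29), Ako-3 replicate 3, Mko-3 replicate 1 or Mko-3 replicate 3.

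HSPA5 was higher in Mko-3 than in Ako-3 by 0.25 (SE 0.03, adjusted p = 3.8e-09, edgeR), MANF by 0.39 (SE 0.05, adjusted p = 3.4e-09), DNAJC3 by 0.37 (SE 0.06, adjusted p = 3.6e-07) and CANX by 0.30 (SE 0.04, adjusted p = 4.0e-11). MBTPS2 had the largest difference, 0.55 (SE 0.06, adjusted p = 1.0e-11), followed by ERN1 at 0.48 (SE 0.08, adjusted p = 9.8e-07), both being less reduced in Mko-3. CALR (0.01, SE 0.03), CRELD2 (0.01, SE 0.05) and PDIA6 (0.03, SE 0.04) did not pass. The 4 that were lower in Mko-3 were XBP1 (-0.13), CREB3L3 (-0.14), TXNDC11 (-0.18) and ATF6B (-0.21).

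Other ER genes were taken as 5 lists, also chosen with earlier results known. Those of the translocon and oligosaccharyltransferase, which thread proteins into the ER and glycosylate them, had 13 of 24 higher and 3 lower in Ako-3 and 14 higher and none lower in Mko-3, with medians of 0.18 and 0.31. SEC61A1, the channel itself, was at 75.8, 81.3 and 73.9 FPKM in control, 121, 123 and 124 in Ako-3 and 111, 111 and 114 in Mko-3. SEC11C, a signal peptidase subunit, rose by 0.84 and 0.70 and SSR2 by 0.55 and 0.56. Other degradation genes had 9 of 23 higher and 3 lower in Ako-3 and 15 higher and 5 lower in Mko-3. Among them, UFD1 was at 0.85 and 0.99, SELENOS at 0.38 and 0.72 and HM13 at 0.50 and 0.57. Both lists stand against backgrounds of 25.5% higher and 24.4% lower in Ako-3 and 26.9% and 27.1% in Mko-3. The share of other degradation genes lower in Mko-3 (21.7%) lies near that of all genes.

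Glycan quality control genes had 4 of 9 higher and 1 lower in Ako-3 and 3 higher and 1 lower in Mko-3. The backgrounds are 25.5% higher and 24.4% lower in Ako-3 and 26.9% higher and 27.1% lower in Mko-3, so the Mko-3 share of higher genes (33.3%) lies near that of all genes. The higher ones included UGGT1 (0.42 and 0.58), the sensor that re-glucosylates unfolded glycoproteins, MLEC (0.42 and 0.59) and MAN1B1 (0.29 and 0.48). Other disulfide enzymes had 3 of 11 higher and 5 lower in Ako-3 and 6 higher and 1 lower in Mko-3. The share higher in Ako-3 (27.3%) lies near the background of 25.5%. TMX2 rose by 0.52 and 0.53, and the oxidase ERO1B fell by 2.06 in Mko-3. In Ako-3 ERO1B was at -0.32 (adjusted p = 0.039, edgeR), which did not pass without control replicate 1 (adjusted p = 0.17), control replicate 3, Ako-3 replicate 2 or Ako-3 replicate 3. P4HB, the protein disulfide isomerase that is also the small subunit of the microsomal transfer protein, was named after its values were seen and was higher by 0.22 in each clone.

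The genes listed under the PERK branch mostly went the other way in mRNA. Of 8 genes, 6 were lower (background 24.4%) and 1 higher in Ako-3 (median -0.74). In Mko-3, 7 were lower (background 27.1%) and 1 higher (median -0.98). EIF2AK3, the gene of PERK itself, was not on this list, and phosphorylation of eIF2α was not measured. Whether PERK had a part in these levels was not tested. ATF3 was at 11.3, 13.3 and 11.7 FPKM in control, 2.96, 3.31 and 3.31 in Ako-3 and 5.17, 5.29 and 5.03 in Mko-3, with log2 fold changes of -1.92 (SE 0.09, adjusted p = 2.6e-12, edgeR) and -1.24 (SE 0.09, adjusted p = 2.4e-10). PPP1R15A (GADD34), which returns eIF2α to its unphosphorylated state, was at 47.3, 39.7 and 41.7 FPKM in control, 15.1, 17.1 and 14.9 in Ako-3 and 16.6, 16.6 and 16.3 in Mko-3 (-1.45 and -1.39). No knockout value of either gene reached the control range.

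CEBPB was at 249.5, 248 and 209 FPKM in control, 136, 141 and 144 in Ako-3 and 98.0, 95.1 and 98.98 in Mko-3 (-0.75 and -1.29). DDIT3 (CHOP), named after its values were seen, was at 30.7, 32.1 and 29.6 FPKM in control, 10.2, 9.60 and 9.30 in Ako-3 and 11.04, 9.33 and 7.80 in Mko-3 (-1.67 and -1.72). ATF4 mRNA itself was at -0.11 (SE 0.06, adjusted p = 0.16, edgeR) in Ako-3 and -0.17 (SE 0.06, adjusted p = 0.024) in Mko-3, and its protein was not measured in these files. The gene that rose was EIF2S1, encoding eIF2α, by 0.37 and 0.45.

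**Figure D5:**
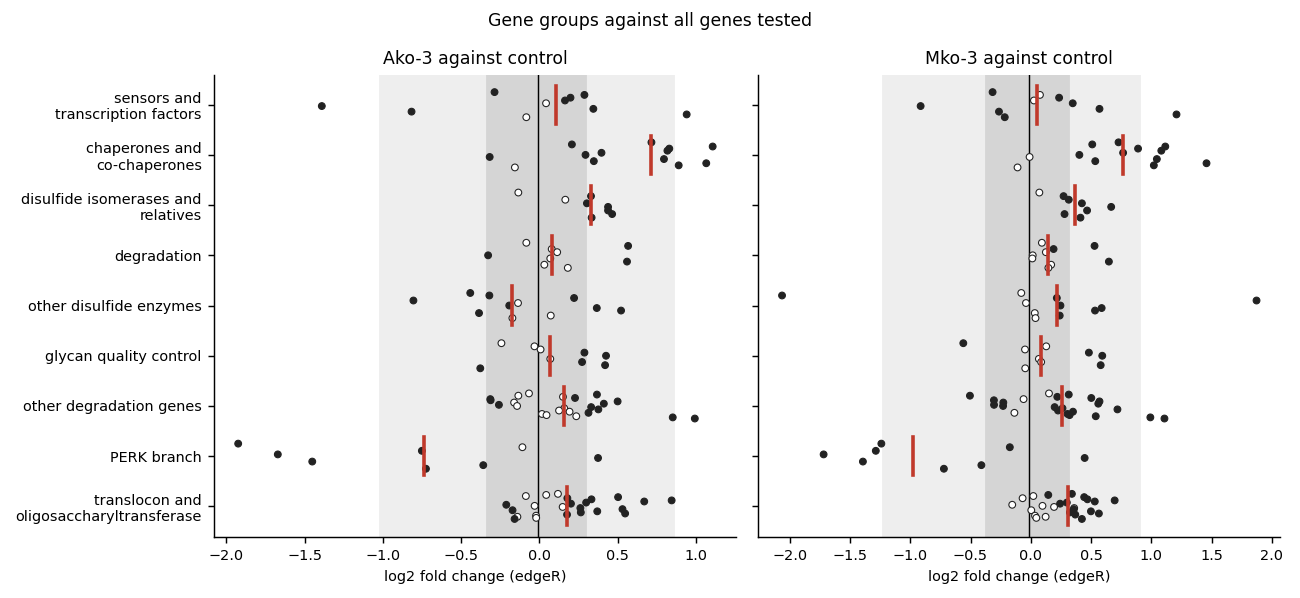
Log2 fold change against control (horizontal axis, edgeR) of every tested gene in the 4 classes and 5 other ER lists, with filled points for an adjusted p of at most 0.05, red bars for the median, and for all genes tested a black line at the median and grey bands for the middle 50% and 90%. The chaperone medians of 0.71 and 0.77 lie right of the middle band and the PERK branch medians of -0.74 and -0.98 left of it.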

How the data were processed

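RNA from 3 groups of 3 libraries was analysed, grouped by the cell named in the labels. The raw counts deposited by the authors came from paired reads aligned to hg38 with HISAT2 2.0.5 and counted per gene with featureCounts 1.5.0-p3. The strand setting, read filters and annotation release are not given in the sources used here, and the submitters' notes also list GRCh37 and hg19. The FPKM values deposited by the authors divide those counts by gene length, in bases, and by a size for each library, and were used for levels. That size is not the total count. It is above the total in the control libraries and below it in the Ako-3 libraries. How it was set is not given in the sources used here. Levels, summed levels and ranges in FPKM therefore already carry a scaling between groups.

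Differences were tested on the counts with edgeR 4.0.16 in R 4.3.3 (TMM, filterByExpr with a minimum count of 10, robust quasi-likelihood F test), fitting the 6 libraries of each comparison apart, with Benjamini-Hochberg adjustment over all genes. A gene passed at an adjusted p of at most 0.05 and was called with a log2 fold change of at least 1 in size as well. The SE is the log2 fold change divided by the square root of F. The method was tested on simulated counts. DESeq2 1.42.0, limma 3.58.1 on log2(FPKM + 1) and log2(FPKM + 0.1), other scalings and filters, a replicate block and leaving out each library were the alternatives. Replicate pairs differed by more than sampling noise, so no library was counted as a repeat of another. The p-values measure the spread between cultures of 1 clone or line.

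The members and lists were chosen with earlier results of these data known. Values in every library are given for HSPA5, XBP1, ATF6, ERN1 and EIF2AK3, for each called member and for the 3 of each class with the smallest adjusted p, and up to 3 genes are named from each other list by the same measure. Letters were searched in RefSeq promoter windows. Protein sequences were not used here.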

Additional observations from a re-analysis of the deposited data

Results flagged for a closer look

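In 4 genes of the other ER lists either the clones differed by at least 2-fold from each other or both passed against control in opposite directions, with a difference between Mko-3 and Ako-3 that passed in edgeR on the 6 knockout libraries. Smaller differences between the clones passed in further genes of these lists, among them ATF3 (0.69) and CEBPB (-0.53). PDIA2, a disulfide isomerase, was at 0.78, 0.55 and 0.76 FPKM in control, 0.32, 0.51 and 0.36 in Ako-3 and 2.47, 2.59 and 2.77 in Mko-3, a difference of 2.68 (SE 0.24, adjusted p = 4.8e-16), from a level below 1 FPKM in control and Ako-3. Its fall in Ako-3 (-0.81, SE 0.33, adjusted p = 0.049) did not pass when control replicate 1, control replicate 3, Ako-3 replicate 1 or Ako-3 replicate 3 was left out (adjusted p = 0.14 to 0.17). ERO1B was at 3.18, 2.46 and 2.84 FPKM in control, 2.54, 2.08 and 2.21 in Ako-3 and 0.77, 0.78 and 0.47 in Mko-3, a difference of -1.74 (SE 0.15, adjusted p = 4.6e-16). On the log2(FPKM + 1) scale with limma, where the added 1 shrinks changes of low genes, the differences were 1.37 for PDIA2 and -0.97 for ERO1B, and both passed. The peroxiredoxin PRDX4 was lower in Ako-3 (-0.19) and higher in Mko-3 (0.25), a difference of 0.44 (SE 0.05, adjusted p = 3.0e-12). TRAM1, a translocon protein, was lower in Ako-3 (-0.16) and higher in Mko-3 (0.42), a difference of 0.58 (SE 0.04, adjusted p = 1.9e-20). PRDX4 and TRAM1 were not among the genes the naming rule gave and were named after their values were seen.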

How the results depend on the processing

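Counts of members higher, lower and called were within 1.5 times the reported value in all but 3 cases. With library totals alone, 8 members were lower in Ako-3 in place of 5. With limma on log2(FPKM + 1) and no filter, 13 were higher in Mko-3 than in Ako-3 in place of 22. Without control replicate 2, 5 were called in Ako-3 in place of 3. Leaving out each library gave 22 to 25 higher, 5 lower and 2 to 5 called in Ako-3, 23 to 27 higher, 4 lower and 4 to 6 called in Mko-3, and 18 to 20 higher, 3 to 4 lower and 0 called between the clones. With upper quartile factors or library totals, 4 were called in Mko-3 in place of 6. Of the values of named genes under all alternatives, 53 lost their pass and 6 gained one, and 11 turned sign. The direction turned only for values that did not pass either way. These were EIF2AK3 in Ako-3 (-0.008 with upper quartile factors, -0.053 with library totals) and EDEM3 in Mko-3 (-0.051 and -0.052 with these, and -0.012 to 0.046 over the libraries left out). Over the libraries left out, APOB in Mko-3 ran from -0.188 to 0.061, and between the clones CRELD2 ran from -0.025 to 0.036 (-0.003 with upper quartile factors), DERL2 from -0.07 to 0.005 and ATF6 from -0.079 to 0.025. The cause of these changes was not tested.

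Libraries with the same replicate number did not deviate together (correlations of -0.072 to 0.064), so the numbers were not taken to pair them. With the replicate block, 23, 5 and 3 members were higher, lower and called in Ako-3, 26, 4 and 6 in Mko-3, and 23, 4 and 0 between the clones.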

Other observations

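The segregase that pulls ubiquitinated proteins out of the ER membrane is built of VCP with its cofactors UFD1 and NPLOC4. VCP was at 88.9, 123 and 89.1 FPKM in control, 195, 197 and 208 in Ako-3 and 213, 218 and 225 in Mko-3, with control replicate 2 again the highest of the control libraries. Its log2 fold changes were 0.99 (SE 0.11, adjusted p = 5.0e-05, edgeR) and 1.11 (SE 0.12, adjusted p = 4.6e-05), larger than those of any of the 9 tested degradation members. NPLOC4 was higher by 0.41 and 0.56, and UFD1 by 0.85 and 0.99. VCP and NPLOC4 were named after their values were seen.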
